A study of Mus musculus with 15 samples.

Results

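The endoplasmic reticulum (ER) folding and unfolded protein response set holds 37 genes, taken as a list of symbols, and was followed in uterine RNA across treatment with estradiol (E2) or estriol (E3). The scanner files name 27962 gene symbols, and all 37 genes were found among them, 3 of them under older symbols (*Manf* as Armet, *Sel1l* as Sel1h, and *Ppp1r15a* as Myd116). The 37 genes are covered by 67 probes, and 19 of them by 1 probe. Each gene is represented by its brightest probe. All 37 probes were well above background on every array and none was saturated, so no gene entered or left the comparisons through the filter on dim probes.

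Ovariectomized adult female mice (labelled as 10 weeks or older) received by intraperitoneal injection 250 ng E2, 250 ng E3 or saline alone, in 100 μl saline, and uteri were collected 2 or 24 hr later. Each of 5 groups (saline at 24 hr, E2 at 2 hr, E3 at 2 hr, E2 at 24 hr, and E3 at 24 hr) has 3 one-color arrays. The mice of the saline, E3 and E2 24-hr groups are C57bl6/J. Those of the E2 2-hr group are labelled C57bl6/Jx129 and wild type for *Esr1*, the estrogen receptor α gene, and their arrays were read on another scanner and day and lie on 2 slides of their own, so that strain, slide, scanner and E2 at 2 hr cannot be told apart. The E2 24-hr arrays and the E3 24-hr arrays also lie on slides of their own, so slide and treatment cannot be told apart there either. The arrays used here include no saline at 2 hr, and the 24-hr saline arrays are the vehicle for both times. Estriol is estradiol with an added hydroxyl group on the D ring, and is known as a weak, short-acting estrogen. The labels state that each uterus was homogenized by itself, whereas the methods of the study describe pooled tissue, so the p-values cover the spread between these arrays, whichever source it has.

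Levels are given as the log2 processed signal minus the log2 of the 75th percentile of the same array (0 is the 75th percentile), and differences are in log2 units. A gene is said to rise or fall where limma's adjusted p over all tested probes is under 0.05. The array 75th percentiles ran from 2989 to 4412 intensity units, and 77.8% to 81.8% of probes were well above background on an array. All 14 uterus markers were above background on every array. Over all tested probes 27.3% rose and 34.1% fell after E2 at 24 hr, and 15.6% and 18.5% after E3. Of the uterus markers 7 rose and 4 fell after E2 at 24 hr, and 7 rose and 2 fell after E3 at 24 hr. Their sum lay at 220 to 262 times the array 75th percentile on the saline arrays, 217 to 218 after E2 and 178 to 201 after E3 at 2 hr, and 315 to 335 after E2 and 293 to 326 after E3 at 24 hr. The epithelial markers among them rose after E2 and E3 at 24 hr, *Krt8* by 1.49 and 0.85, *Krt19* by 1.37 and 0.52, *Cdh1* by 1.03 and 0.65, and *Krt18* by 0.48 and 0.51. Of the 12 liver markers listed, *Serpina1a* was not found on the array under that symbol. Of the other 11, 11 fell after E2 and 10 after E3 at 2 hr, beside 32.8% and 30.9% of all probes. At 24 hr 11 fell after E2 and 11 after E3, beside 34.1% and 18.5%. Mean levels of *Alb* were at 2.27 in saline and -3.23 and -2.63 after E2 and E3 at 24 hr. The sum of the 11 liver markers lay at 10 to 29.4 on the saline arrays, 1.27 to 1.77 after E2 and 4.03 to 6.96 after E3 at 2 hr. At 24 hr it lay at 1.21 to 1.31 after E2 and 1.59 to 2.71 after E3. Summed exocrine pancreas markers reached 962 on E3 2-hr replicate 2 and 434 on E2 24-hr replicate 2, 17.6 on E3 2-hr replicate 3 and 7.69 on E2 24-hr replicate 3, and lay at 0.381 to 0.805 on the other 11 arrays. Summed adipose markers lay at 11.2 to 65.1 on the saline arrays and 8.18 to 13.3 after E2 at 24 hr, where 5 of the 6 fell (34.1% of all probes). Summed skeletal muscle markers, of which *Acta1* was the brightest, lay at 3.43 to 3.77 on the saline arrays. At 24 hr they lay at 8.11 to 11 after E2 and 5.36 to 8.19 after E3. The part of these tissues in the results was not tested. In whole uteri, fewer cells of a type and less RNA per cell cannot be told apart.

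Secreted and membrane proteins enter the ER through the Sec61 channel, lose their signal peptide to signal peptidase, and fold with the help of Hsp70 and Hsp90 chaperones, lectin chaperones that hold glycoproteins, and enzymes that form disulfide bonds. When unfolded protein builds up, the sensors Ern1 (IRE1α), Eif2ak3 (PERK) and Atf6 start the unfolded protein response: Ern1 splices *Xbp1* mRNA, Eif2ak3 slows translation while letting *Atf4* mRNA be translated, and Atf6 is cut to release a transcription factor. Their targets include chaperones, enzymes that carry misfolded protein out for degradation, and the stress effectors Ddit3 (CHOP), Trib3 and Ppp1r15a (GADD34). The uterine epithelium is a secretory tissue that estrogen stimulates to grow and to release luminal fluid protein. The arrays measure mRNA, and neither *Xbp1* splicing nor the phosphorylation or cleavage of the sensors.

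The promoter element known as the ERSE, to which NF-Y and Atf6 or Xbp1 are known to bind, is shown here as a well known control element of ER chaperone genes. Promoter windows (RefSeq, GRCm38.p6, 250 bases before to 50 after the start) were matched for 30 of the 37 genes; *Manf*, *Hyou1*, *Atf6*, *Sec61a1*, *Ssr2*, *Sil1* and *Spcs3* had no window. The ERSE (CCAAT and CCACG with 9 bases between them, either strand) was found in the windows of 8 of the 30 genes (26.7%), and in 0.119% of all 32851 windows. The ERSE-II (ATTGG and CCACG with 1 base between them) was found in 2 of the 30 (*Dnajb11* and *Herpud1*) and in 0.0365% of all windows. The UPRE (TGACGTGG) was found in 0 of the 30 and 0.676% of all windows, and the C/EBP-ATF element (TTGCATCA) in *Herpud1* alone and 0.895% of all windows. The estrogen response element (GGTCA and TGACC with 3 bases between them) was found in 0 of the 30 and 0.07% of all windows. No motif of a gene overlapped another motif of the same gene. A match of letters is a description of the window and not a site of binding. The stretches below run 5′ to 3′ on the gene's strand, with the ERSE or ERSE-II in capitals and up to 40 bases on each side.
Hspa5 (chr2:34771985-34772083, plus strand): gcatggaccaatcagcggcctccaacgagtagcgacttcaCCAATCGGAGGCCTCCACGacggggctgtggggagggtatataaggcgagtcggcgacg
Hsp90b1 (chr10:86705493-86705694, minus strand): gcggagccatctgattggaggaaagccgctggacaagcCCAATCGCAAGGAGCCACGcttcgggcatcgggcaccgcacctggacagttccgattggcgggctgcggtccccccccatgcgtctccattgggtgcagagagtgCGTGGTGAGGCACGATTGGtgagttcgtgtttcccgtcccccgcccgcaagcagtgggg
Dnajc3 (chr14:118937787-118937885, plus strand): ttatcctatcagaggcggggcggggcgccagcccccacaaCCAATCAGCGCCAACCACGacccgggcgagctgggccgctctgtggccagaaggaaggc
Creld2 (chr15:88819480-88819578, plus strand): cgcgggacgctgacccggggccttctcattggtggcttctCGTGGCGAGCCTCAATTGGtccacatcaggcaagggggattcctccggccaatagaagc
Calr (chr8:84847035-84847133, minus strand): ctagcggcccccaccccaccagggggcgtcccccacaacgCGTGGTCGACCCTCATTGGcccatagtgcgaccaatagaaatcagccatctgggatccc
Canx (chr11:50325760-50325858, minus strand): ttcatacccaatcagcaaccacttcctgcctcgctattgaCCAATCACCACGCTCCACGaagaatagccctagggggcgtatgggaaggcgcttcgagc
Pdia6 (chr12:17266451-17266549, plus strand): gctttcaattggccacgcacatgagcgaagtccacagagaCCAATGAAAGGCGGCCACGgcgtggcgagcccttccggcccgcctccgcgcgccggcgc
Syvn1 (chr19:6046492-6046575, plus strand): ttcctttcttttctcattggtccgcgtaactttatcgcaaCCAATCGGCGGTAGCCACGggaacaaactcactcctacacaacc
Dnajb11 (chr16:22857812-22857874, plus strand): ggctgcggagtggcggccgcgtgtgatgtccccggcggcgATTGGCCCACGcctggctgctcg
Herpud1 (chr8:94386337-94386427, plus strand): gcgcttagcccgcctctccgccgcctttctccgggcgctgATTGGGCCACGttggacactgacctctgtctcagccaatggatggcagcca

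The first base of the ERSE lay 65 bases before the start of *Hspa5* (position -65), at -98 in *Pdia6*, at -105 in *Dnajc3*, and at -44 in *Syvn1*. *Hsp90b1* held 2 copies in opposite orientation, at -212 and -107. Of the 8 genes with an ERSE, 7 rose after E2 at 24 hr, with *Syvn1* at 0.21 (adjusted p = 0.167), and their median difference was 1.04. None of the 8 rose or fell after E3 at 24 hr (median 0.02). Of the 22 genes with a window and no ERSE, 15 rose and 3 fell after E2 at 24 hr (median 0.64), and 7 rose and 2 fell after E3 at 24 hr (median 0.15). At 2 hr, 6 of the 8 rose after E2 (median 0.51) and 5 after E3 (median 0.56). Of the 22 without an ERSE, 11 rose and 3 fell after E2 at 2 hr (median 0.42), and 10 rose and 2 fell after E3 (median 0.34). Over all tested probes 27.3% rose after E2 and 15.6% after E3 at 24 hr, and 29.2% and 18.7% at 2 hr. These counts are given as a description, and the overlap of the element with the response was not tested.

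Across the whole set, the count of genes that rose was highest after E2 at 24 hr and lowest after E3 at 24 hr. After E2 at 2 hr 20 of the 37 genes rose and 5 fell, beside 29.2% of all tested probes that rose and 32.8% that fell, and the median difference was 0.40 beside -0.08 over all probes. After E3 at 2 hr 18 rose and 2 fell (18.7% and 30.9% of probes, median 0.38 beside -0.11). After E2 at 24 hr 27 rose and 3 fell (27.3% and 34.1% of probes, median 0.74 beside -0.06). After E3 at 24 hr 9 rose and 2 fell (15.6% and 18.5% of probes, median 0.12 beside -0.01). By the cutoffs of the study (p under 0.001 and at least 2-fold), 6 rose after E2 and 5 after E3 at 2 hr, 14 rose and 1 fell after E2 at 24 hr, and 0 changed after E3 at 24 hr; 21.2%, 13.8%, 18.1% and 3.81% of all probes passed these cutoffs in either direction. The counts after E3 at 24 hr moved with the processing: 6 rose and 3 fell with quantile normalization, 3 rose and 1 fell with the normexp background, 4 rose and 1 fell without scaling between the arrays, and 4 rose and 0 fell with a minimum of 1.5-fold. The shares of all probes called with these settings are not given, so whether the shift is particular to the set was not tested. The 4 comparisons share the saline arrays. E3 2-hr replicates 1 to 3 lie on 1 slide with saline replicate 3. A further fit left out saline replicates 1 and 2 and kept all other arrays. In it the median difference of the 37 genes after E3 at 2 hr was 0.46, beside -0.06 over all probes. The genes that fell in the fit of all arrays were at -0.44 (*Eif2ak3*) and -0.41 (*Ddit3*). With 1 saline array, the spread of that fit comes from the treated groups, on this and other slides, so only differences are given.

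**Figure D1:**
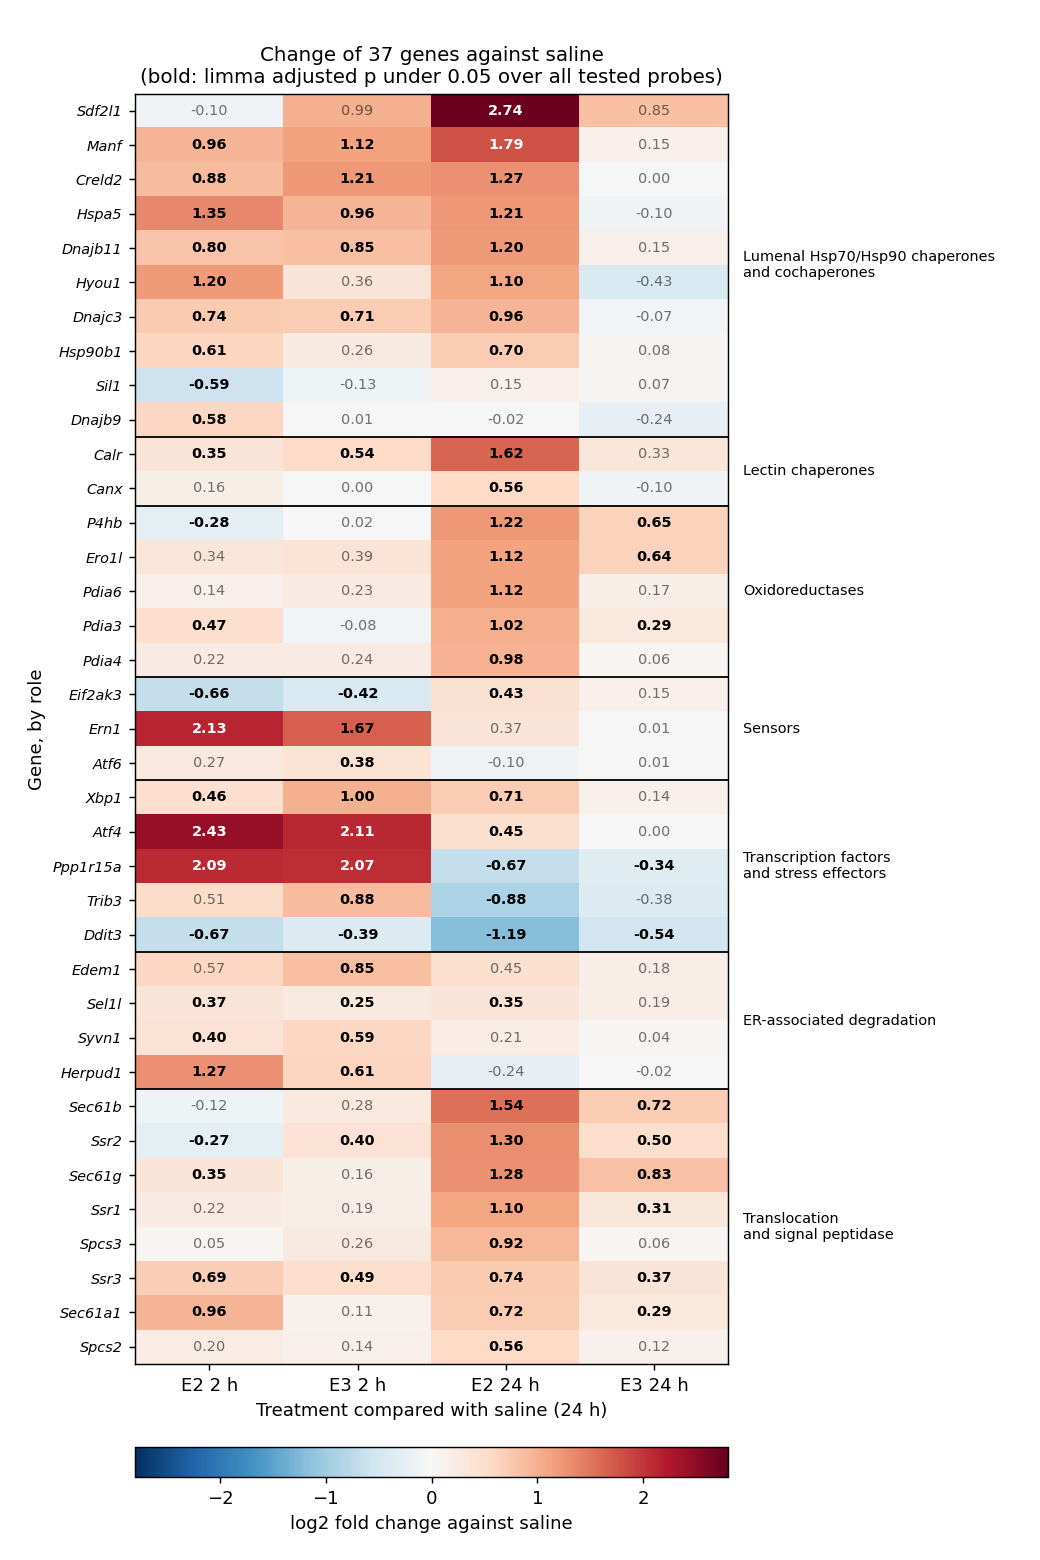
Log2 fold change of the 37 genes against saline in the 4 treated groups, by role, with bold numbers where the adjusted p is under 0.05. In the E2 24-hr column every oxidoreductase and translocation row is red, as are the lumenal chaperone rows (2.74 for Sdf2l1) other than Dnajb9 (-0.02) and Sil1 (0.15), while Atf4 (2.43 and 2.11), Ppp1r15a (2.09 and 2.07) and Ern1 (2.13 and 1.67) are darkest in the E2 and E3 2-hr columns.

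Of the 10 Hsp70 and Hsp90 chaperones of the ER lumen and their cochaperones, 8 rose and 1 fell after E2 at 2 hr, beside 29.2% and 32.8% of all probes. After E3 at 2 hr 5 of the 10 rose (18.7% of probes), and *Hsp90b1* (0.26, adjusted p = 0.304), *Hyou1*, *Sdf2l1*, *Sil1* and *Dnajb9* did not pass. After E2 at 24 hr 8 rose (27.3% of probes), and after E3 at 24 hr 0 rose or fell (15.6% and 18.5% of probes). *Hspa5* encodes BiP, the main Hsp70 of the ER, and its probe lies at chr2:34783421-34783480 (mm7 build of the array, plus strand). *Hspa5* read 4.09, 4.20 and 3.87 on the saline arrays, 5.24, 5.63 and 5.32 after E2 at 2 hr, and 4.94, 4.88 and 5.21 after E3 at 2 hr. The 24-hr *Hspa5* values were 5.20, 5.20 and 5.39 after E2 and 3.69, 4.0 and 4.18 after E3. Every array of the 2-hr groups and of E2 at 24 hr lay above the highest saline array, while the E3 24-hr arrays overlapped saline. *Hspa5* rose by 1.35 (SE 0.15, adjusted p = 8.26e-06) after E2 and 0.96 (adjusted p = 0.000195) after E3 at 2 hr, and by 1.21 (adjusted p = 2.51e-05) after E2 at 24 hr. After E3 at 24 hr the difference was -0.10 (adjusted p = 0.66). From 2 to 24 hr of E3 *Hspa5* fell by 1.06 (adjusted p = 7.73e-05). *Hsp90b1* encodes Grp94, the Hsp90 of the ER. *Hsp90b1* read 4.92, 5.04 and 4.77 on the saline arrays, 5.43, 5.65 and 5.49 after E2 at 2 hr, and 4.94, 4.95 and 5.62 after E3 at 2 hr. The 24-hr *Hsp90b1* values were 5.66, 5.55 and 5.62 after E2 and 4.68, 4.90 and 5.40 after E3. It rose by 0.61 (SE 0.196, adjusted p = 0.0166) after E2 at 2 hr and 0.70 (adjusted p = 0.00811) after E2 at 24 hr, and replicate 3 of each E3 group stood at 5.62 and 5.40, apart from the other arrays of those groups. *Hyou1* (Grp170) is a nucleotide exchange factor of BiP. *Hyou1* read 1.49, 1.53 and 1.59 on the saline arrays, 2.77, 2.87 and 2.57 after E2 at 2 hr, and 1.88, 1.77 and 2.03 after E3 at 2 hr. The 24-hr *Hyou1* values were 2.72, 2.47 and 2.71 after E2 and 0.61, 0.90 and 1.82 after E3. It rose by 1.20 (adjusted p = 0.000696) after E2 at 2 hr and 1.10 (adjusted p = 0.00142) after E2 at 24 hr, and was at 0.36 (adjusted p = 0.23) after E3 at 2 hr and -0.43 (adjusted p = 0.175) after E3 at 24 hr, where replicates 1 and 2 lay below every saline array and replicate 3 above. The other, dimmer *Hyou1* probe did not share the rise after E2 at 24 hr (-0.04, adjusted p = 0.884).

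*Sdf2l1*, a partner of the cochaperone Dnajb11, had the largest rise of the 37 genes after E2 at 24 hr, and its probe lies at chr16:16680066-16680125 (mm7, minus strand). *Sdf2l1* read -0.44, 0.45 and -0.55 on the saline arrays, -0.22, -0.07 and -0.54 after E2 at 2 hr, and -0.03, 0.65 and 1.81 after E3 at 2 hr. The 24-hr *Sdf2l1* values were 2.50, 2.55 and 2.64 after E2 and -0.07, 0.42 and 1.67 after E3. The E2 24-hr arrays lay close together and above all other arrays, whereas the arrays of the saline and E3 groups were spread. *Sdf2l1* rose by 2.74 (SE 0.478, adjusted p = 0.000342), 6.68-fold, after E2 at 24 hr. It was at -0.10 (adjusted p = 0.872) after E2 and 0.99 (adjusted p = 0.107) after E3 at 2 hr, and at 0.85 (adjusted p = 0.192) after E3 at 24 hr. *Manf* is a secreted and ER-resident protein known to be induced by ER stress. *Manf* read 2.11, 2.33 and 1.73 on the saline arrays, 2.85, 3.36 and 2.83 after E2 at 2 hr, and 3.01, 2.98 and 3.54 after E3 at 2 hr. The 24-hr *Manf* values were 3.71, 3.83 and 3.99 after E2 and 1.80, 2.04 and 2.77 after E3. It rose by 0.96 (SE 0.253, adjusted p = 0.00561) after E2 and 1.12 (adjusted p = 0.00286) after E3 at 2 hr and by 1.79 (adjusted p = 7.06e-05) after E2 at 24 hr, with every array of these groups above the saline arrays. *Dnajb11* and *Dnajc3* encode J-domain cochaperones of BiP. *Dnajb11* read 2.23, 2.50 and 2.10 on the saline arrays, 2.8, 3.41 and 3.01 after E2 at 2 hr, and 2.98, 2.98 and 3.43 after E3 at 2 hr. The 24-hr *Dnajb11* values were 3.39, 3.43 and 3.63 after E2 and 2.11, 2.31 and 2.87 after E3. The 2-hr groups overlapped each other and lay above saline. *Dnajc3* read 0.86, 1.26 and 0.95 on the saline arrays, 1.52, 2.05 and 1.71 after E2 at 2 hr, and 1.35, 1.67 and 2.19 after E3 at 2 hr. The 24-hr *Dnajc3* values were 1.76, 2.02 and 2.18 after E2 and 0.76, 0.90 and 1.19 after E3. Here too the arrays of the 3 groups other than E3 at 24 hr lay above saline. *Dnajb11* rose by 0.80 (adjusted p = 0.00577) after E2 and 0.85 (adjusted p = 0.0051) after E3 at 2 hr and by 1.20 (adjusted p = 0.000367) after E2 at 24 hr. *Dnajc3* rose by 0.74 (adjusted p = 0.00961), 0.71 (adjusted p = 0.0148) and 0.96 (adjusted p = 0.00194) in the same 3 groups on its brightest probe. Of its 3 other probes, 2 did not pass after E2 at 2 hr (0.08, adjusted p = 0.79, and 0.05, adjusted p = 0.899). *Dnajb11* and the brightest *Dnajc3* probe did not pass against saline after E3 at 24 hr (0.15 and -0.07). *Creld2*, another ER-stress-inducible lumenal protein, rose by 0.88, 1.21 and 1.27 in these groups. *Sil1*, another nucleotide exchange factor of BiP, fell by 0.59 after E2 at 2 hr (adjusted p = 0.000356) and was within 0.15 of saline elsewhere. *Dnajb9* rose after E2 at 2 hr (0.58, adjusted p = 0.000439), with 0.01 after E3 at 2 hr.

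**Figure D2:**
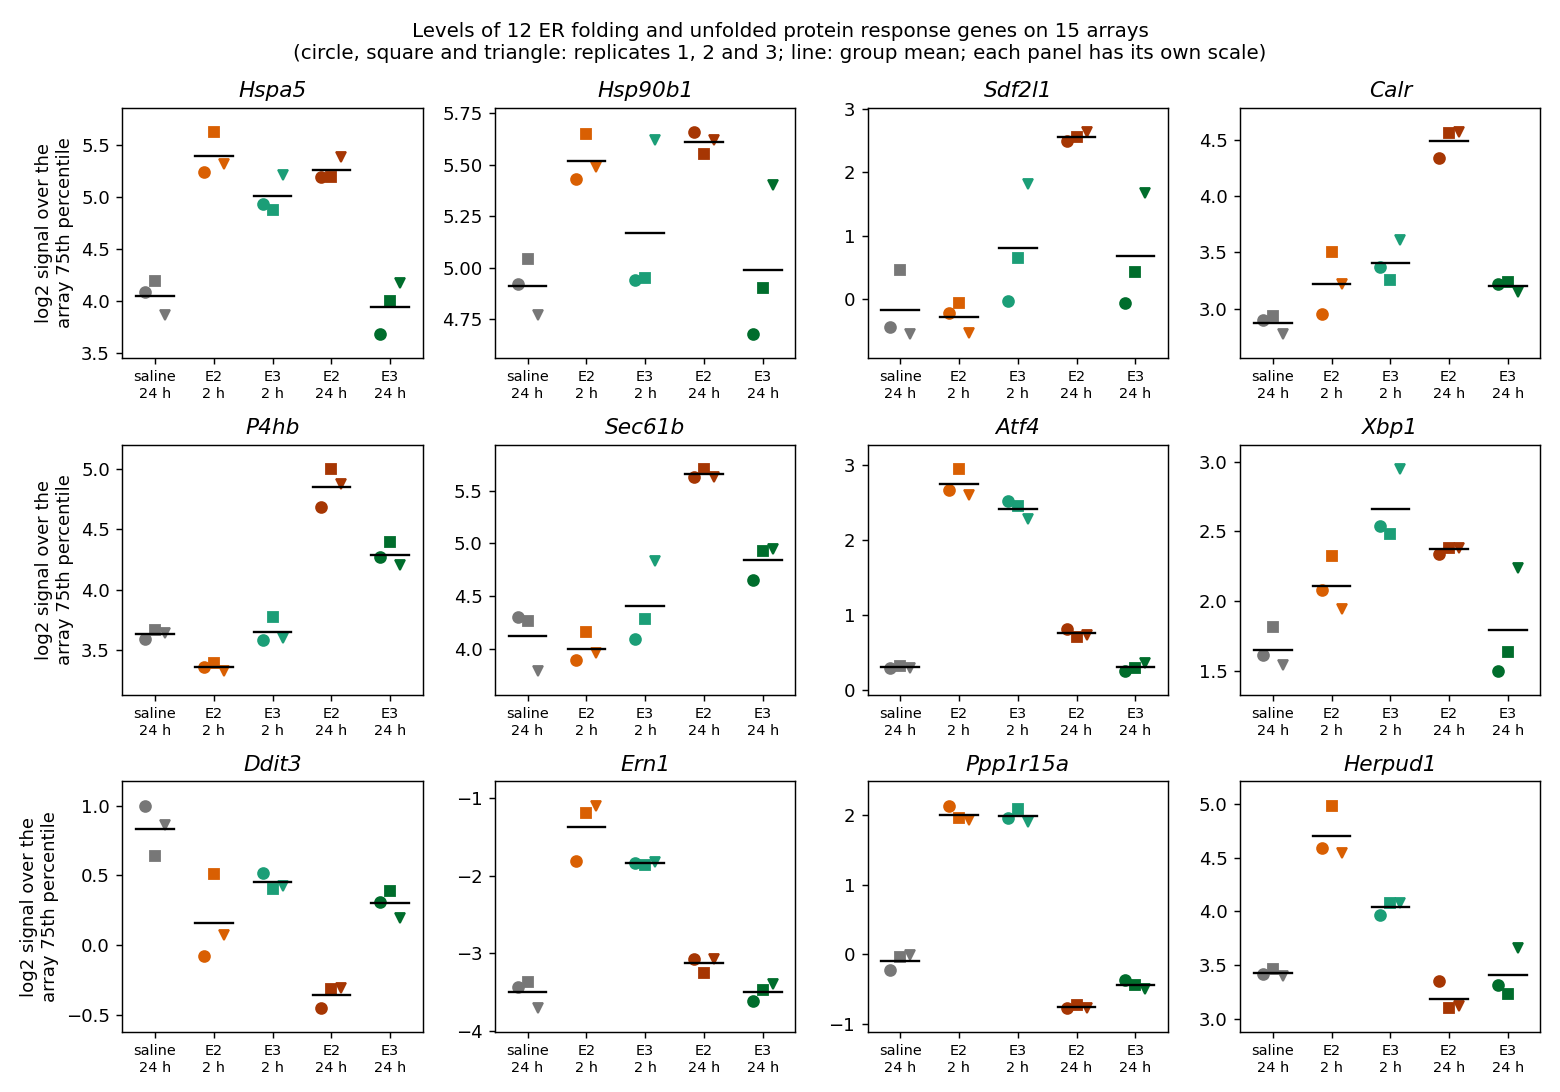
Normalized log2 level of 12 of the genes on each of the 15 arrays (log2 signal over the array 75th percentile), with 1 point an array and a line at each group mean. Hspa5, Calr and Sec61b of the E2 24-hr arrays lie above all saline arrays, Atf4, Ern1 and Ppp1r15a are high only in the 2-hr groups, and Ddit3 is highest on the saline arrays.

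Of the lectin chaperones, *Calr* (calreticulin) rose in 3 of the 4 treated groups and the brightest probe of *Canx* (calnexin) after E2 at 24 hr. *Calr* read 2.90, 2.94 and 2.78 on the saline arrays, 2.95, 3.50 and 3.22 after E2 at 2 hr, and 3.37, 3.26 and 3.61 after E3 at 2 hr. The 24-hr *Calr* values were 4.34, 4.56 and 4.57 after E2 and 3.22, 3.24 and 3.15 after E3. All E2 24-hr arrays lay above every other array, and the E3 24-hr arrays lay above the saline arrays without passing the test. *Calr* rose by 0.35 (SE 0.133, adjusted p = 0.0372) after E2 and 0.54 (adjusted p = 0.00479) after E3 at 2 hr, and by 1.62 (adjusted p = 1.43e-06), 3.07-fold, after E2 at 24 hr. After E3 at 24 hr it was at 0.33 (adjusted p = 0.0733). *Canx* rose by 0.56 (adjusted p = 0.00018) after E2 at 24 hr and was within 0.16 of saline in the other groups on its brightest probe. The other *Canx* probes rose after E2 at 2 hr as well, by 0.59 (adjusted p = 0.00129) and 0.34 (adjusted p = 0.00652), and 1 of them after E3 at 24 hr (0.36, adjusted p = 0.041).

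Of the 5 oxidoreductases, which form and rearrange disulfide bonds, 5 rose after E2 at 24 hr (0.98 to 1.22) and 3 after E3 at 24 hr, beside 27.3% and 15.6% of all probes. At 2 hr the brightest probes of 1 rose and 1 fell after E2, beside 29.2% and 32.8%, and 0 passed after E3, beside 18.7% and 30.9%. Dimmer probes of *Pdia6* and *Ero1l* rose after E3 at 2 hr, by 0.40 (adjusted p = 0.00355) and 0.46 (adjusted p = 0.00269). *P4hb* is protein disulfide isomerase, which also serves as a subunit of prolyl 4-hydroxylase. *P4hb* read 3.59, 3.67 and 3.64 on the saline arrays, 3.36, 3.39 and 3.33 after E2 at 2 hr, and 3.58, 3.77 and 3.6 after E3 at 2 hr. The 24-hr *P4hb* values were 4.68, 5.0 and 4.87 after E2 and 4.27, 4.39 and 4.20 after E3. It fell by 0.28 after E2 at 2 hr (adjusted p = 0.0189), and rose by 1.22 (SE 0.0908, adjusted p = 7.71e-07) after E2 and 0.65 (adjusted p = 0.000382) after E3 at 24 hr, with no overlap between the groups. *Pdia3* (ERp57) works with calreticulin and calnexin. *Pdia3* read 3.55, 3.61 and 3.56 on the saline arrays, 4.09, 4.13 and 3.91 after E2 at 2 hr, and 3.41, 3.36 and 3.71 after E3 at 2 hr. The 24-hr *Pdia3* values were 4.69, 4.46 and 4.64 after E2 and 3.79, 3.88 and 3.94 after E3. It rose by 0.47 (adjusted p = 0.00166) after E2 at 2 hr, 1.02 (adjusted p = 5.56e-06) after E2 at 24 hr and 0.29 (adjusted p = 0.0449) after E3 at 24 hr. *Pdia6* encodes another protein disulfide isomerase. *Pdia6* read 4.61, 4.67 and 4.42 on the saline arrays, 4.55, 4.83 and 4.74 after E2 at 2 hr, and 4.64, 4.72 and 5.02 after E3 at 2 hr. The 24-hr *Pdia6* values were 5.70, 5.63 and 5.73 after E2 and 4.67, 4.76 and 4.76 after E3. The brightest *Pdia6* probe passed against saline after E2 at 24 hr (1.12, adjusted p = 4.71e-06). Other *Pdia6* probes rose after E2 at 2 hr by 0.36 (adjusted p = 0.0057) and 1.06 (adjusted p = 1.92e-06), and the latter fell by 0.65 after E3 at 24 hr (adjusted p = 0.000618). *Ero1l*, the oxidase that recharges protein disulfide isomerase, had levels below 0 on all arrays. *Ero1l* read -1.93, -1.56 and -1.77 on the saline arrays, -1.44, -1.46 and -1.34 after E2 at 2 hr, and -1.64, -1.56 and -0.88 after E3 at 2 hr. The 24-hr *Ero1l* values were -0.54, -0.77 and -0.59 after E2 and -1.28, -1.11 and -0.95 after E3. It rose by 1.12 (adjusted p = 0.000151) after E2 and 0.64 (adjusted p = 0.015) after E3 at 24 hr. *Pdia4* rose by 0.98 (adjusted p = 0.00916) after E2 at 24 hr.

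Of the 3 sensors 1 rose and 1 fell after E2 and 2 rose and 1 fell after E3 at 2 hr, beside 29.2% and 32.8% of all probes after E2 and 18.7% and 30.9% after E3. At 24 hr 1 rose after E2 and 0 after E3, beside 27.3% and 15.6%. *Ern1* encodes IRE1α, and its probe lies at chr11:106506675-106506734 (mm7, minus strand). *Ern1* read -3.44, -3.37 and -3.70 on the saline arrays, -1.81, -1.20 and -1.10 after E2 at 2 hr, and -1.84, -1.86 and -1.82 after E3 at 2 hr. The 24-hr *Ern1* values were -3.07, -3.25 and -3.08 after E2 and -3.61, -3.48 and -3.40 after E3. Every array of the 2-hr groups lay above all others. *Ern1* rose by 2.13 (SE 0.158, adjusted p = 3.17e-07), 4.38-fold, after E2 and 1.67 (adjusted p = 4.07e-06) after E3 at 2 hr, and was at 0.37 (adjusted p = 0.06) and 0.01 (adjusted p = 0.984) after E2 and E3 at 24 hr. *Eif2ak3*, which encodes PERK, went the other way at 2 hr. *Eif2ak3* read -0.48, -0.50 and -0.46 on the saline arrays, -1.22, -1.02 and -1.16 after E2 at 2 hr, and -1.13, -0.87 and -0.72 after E3 at 2 hr. The 24-hr *Eif2ak3* values were -0.05, 0.01 and -0.10 after E2 and -0.47, -0.33 and -0.20 after E3. It fell by 0.66 after E2 (adjusted p = 0.000169) and by 0.42 after E3 (adjusted p = 0.0054) at 2 hr, and rose by 0.43 (adjusted p = 0.00359) after E2 at 24 hr. After E3 at 24 hr it was at 0.15 (adjusted p = 0.307). The remaining sensor is *Atf6*. *Atf6* read 0.07, 0.25 and 0.05 on the saline arrays, 0.27, 0.30 and 0.61 after E2 at 2 hr, and 0.40, 0.45 and 0.66 after E3 at 2 hr. The 24-hr *Atf6* values were 0.11, 0.01 and -0.06 after E2 and -0.11, 0.04 and 0.47 after E3. It rose after E3 at 2 hr (0.38, adjusted p = 0.0456) and was at 0.27 (adjusted p = 0.131), -0.10 (adjusted p = 0.557) and 0.01 (adjusted p = 0.971) after E2 at 2 hr, E2 at 24 hr and E3 at 24 hr on its brighter probe. Its dimmer probe rose after E2 at 24 hr (0.77, adjusted p = 0.00425), so the direction there depended on the probe.

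Among the transcription factors and stress effectors, *Atf4* and *Ppp1r15a* rose over 4-fold at 2 hr with either estrogen, while *Ddit3* was below saline in every treated group. *Atf4* encodes the factor whose translation follows PERK activity. *Atf4* read 0.30, 0.32 and 0.30 on the saline arrays, 2.67, 2.95 and 2.60 after E2 at 2 hr, and 2.52, 2.46 and 2.28 after E3 at 2 hr. The 24-hr *Atf4* values were 0.81, 0.71 and 0.74 after E2 and 0.26, 0.30 and 0.36 after E3. The 2-hr arrays lay apart from all others. *Atf4* rose by 2.43 (SE 0.0951, adjusted p = 4.1e-09) after E2 and 2.11 (adjusted p = 1.9e-08) after E3 at 2 hr (5.39- and 4.33-fold), by 0.45 (adjusted p = 0.00139) after E2 at 24 hr, and was at 0.00 (adjusted p = 0.986) after E3 at 24 hr. *Ppp1r15a* encodes GADD34, which brings the phosphatase that restores translation. *Ppp1r15a* read -0.22, -0.04 and -0.01 on the saline arrays, 2.13, 1.95 and 1.93 after E2 at 2 hr, and 1.96, 2.08 and 1.90 after E3 at 2 hr. The 24-hr *Ppp1r15a* values were -0.76, -0.73 and -0.76 after E2 and -0.36, -0.43 and -0.50 after E3. It rose by 2.09 (SE 0.085, adjusted p = 5.53e-09) and 2.07 (adjusted p = 1.09e-08) at 2 hr and then fell below saline at 24 hr, by 0.67 after E2 (adjusted p = 3.23e-05) and by 0.34 after E3 (adjusted p = 0.00903). *Ddit3* encodes CHOP, the factor known to promote cell death under prolonged ER stress. *Ddit3* read 1.0, 0.64 and 0.86 on the saline arrays, -0.08, 0.51 and 0.07 after E2 at 2 hr, and 0.52, 0.40 and 0.42 after E3 at 2 hr. The 24-hr *Ddit3* values were -0.45, -0.32 and -0.31 after E2 and 0.31, 0.39 and 0.19 after E3. Each saline array lay above every treated array. *Ddit3* fell by 0.67 after E2 (adjusted p = 0.00112) and by 0.39 after E3 (adjusted p = 0.0355) at 2 hr, and by 1.19 after E2 (SE 0.139, adjusted p = 1.59e-05) and by 0.54 after E3 (adjusted p = 0.0109) at 24 hr. *Xbp1*, whose product drives chaperone and degradation genes once spliced, rose in 3 groups. *Xbp1* read 1.61, 1.81 and 1.54 on the saline arrays, 2.08, 2.32 and 1.94 after E2 at 2 hr, and 2.54, 2.48 and 2.95 after E3 at 2 hr. The 24-hr *Xbp1* values were 2.34, 2.38 and 2.38 after E2 and 1.5, 1.63 and 2.24 after E3. It rose by 0.46 (SE 0.186, adjusted p = 0.047) after E2 and 1.0 (adjusted p = 0.000711) after E3 at 2 hr and by 0.71 (adjusted p = 0.00523) after E2 at 24 hr, and was at 0.14 (adjusted p = 0.609) after E3 at 24 hr. *Trib3*, a pseudokinase target of Atf4 and Ddit3, rose by 0.88 (adjusted p = 0.0379) after E3 at 2 hr and fell by 0.88 after E2 at 24 hr (adjusted p = 0.0313). On the E2 2-hr arrays it read -0.75, 0.99 and 0.65, where replicate 1 lay below every saline array, and the difference was 0.51 (adjusted p = 0.182).

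Of the 4 genes of ER-associated degradation, 3 rose after E2 and 4 after E3 at 2 hr, beside 29.2% and 18.7% of all probes. At 24 hr 1 rose after E2 and 0 after E3, beside 27.3% and 15.6%. *Herpud1* encodes a membrane protein of the degradation complex. *Herpud1* read 3.42, 3.47 and 3.40 on the saline arrays, 4.59, 4.98 and 4.54 after E2 at 2 hr, and 3.97, 4.08 and 4.08 after E3 at 2 hr. The 24-hr *Herpud1* values were 3.36, 3.11 and 3.12 after E2 and 3.32, 3.24 and 3.66 after E3. It rose by 1.27 (SE 0.133, adjusted p = 4.89e-06) after E2 and 0.61 (adjusted p = 0.00221) after E3 at 2 hr, with every array of either group above saline, and was at -0.24 (adjusted p = 0.144) and -0.02 (adjusted p = 0.922) after E2 and E3 at 24 hr. *Syvn1* (Hrd1, the ubiquitin ligase) rose by 0.40 and 0.59 after E2 and E3 at 2 hr, and its adaptor *Sel1l* by 0.37 and 0.25 on its brightest probe. After E2 at 2 hr the direction of *Sel1l* depended on the probe: another of its 3 probes fell by 1.03 (adjusted p = 0.000565), and the mean over its probes was at -0.18 (adjusted p = 0.616). *Edem1*, which marks misfolded glycoproteins, rose after E3 at 2 hr (0.85, adjusted p = 0.0113) and was at 0.57 (adjusted p = 0.0604) after E2.

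All 8 genes of translocation and signal peptidase rose after E2 at 24 hr (0.56 to 1.54) and 6 of the 8 after E3 at 24 hr (0.29 to 0.83), beside 27.3% and 15.6% of all probes. At 2 hr 3 of the 8 (37.5%) rose and 1 fell after E2, and 2 (25%) rose after E3, near the 29.2% and 18.7% of all probes that rose. The Sec61 genes encode the channel. *Sec61a1* read 4.31, 4.21 and 4.11 on the saline arrays, 5.22, 5.11 and 5.16 after E2 at 2 hr, and 4.23, 4.22 and 4.50 after E3 at 2 hr. The 24-hr *Sec61a1* values were 4.96, 4.88 and 4.94 after E2 and 4.33, 4.54 and 4.61 after E3. *Sec61a1* rose by 0.96 (SE 0.0979, adjusted p = 4.14e-06) after E2 at 2 hr, 0.72 (adjusted p = 5.21e-05) after E2 at 24 hr and 0.29 (adjusted p = 0.04) after E3 at 24 hr, and the E3 2-hr arrays overlapped saline (0.11). *Sec61b* read 4.30, 4.26 and 3.79 on the saline arrays, 3.89, 4.16 and 3.96 after E2 at 2 hr, and 4.09, 4.28 and 4.83 after E3 at 2 hr. The 24-hr *Sec61b* values were 5.63, 5.71 and 5.63 after E2 and 4.65, 4.93 and 4.95 after E3. The E2 24-hr arrays lay above the E3 24-hr arrays, and these above the saline arrays. *Sec61g* read 4.21, 4.35 and 4.12 on the saline arrays, 4.50, 4.69 and 4.53 after E2 at 2 hr, and 4.22, 4.33 and 4.61 after E3 at 2 hr. The 24-hr *Sec61g* values were 5.52, 5.47 and 5.53 after E2 and 4.97, 5.17 and 5.04 after E3. The order at 24 hr was the same. *Sec61b* rose by 1.54 (SE 0.183, adjusted p = 1.91e-05) after E2 and 0.72 (adjusted p = 0.0101) after E3 at 24 hr, and *Sec61g* by 1.28 (adjusted p = 1.48e-06) and 0.83 (adjusted p = 0.000239). At 2 hr *Sec61g* rose after E2 (0.35, adjusted p = 0.0122). The Ssr genes encode the translocon-associated protein complex. *Ssr1* read 2.30, 2.46 and 2.46 on the saline arrays, 2.57, 2.70 and 2.61 after E2 at 2 hr, and 2.56, 2.49 and 2.74 after E3 at 2 hr. The 24-hr *Ssr1* values were 3.51, 3.41 and 3.62 after E2 and 2.75, 2.83 and 2.57 after E3. At 24 hr the order was E2 above E3 above saline, with no overlap. *Ssr2* read 2.15, 2.07 and 1.94 on the saline arrays, 1.75, 1.89 and 1.72 after E2 at 2 hr, and 2.31, 2.45 and 2.61 after E3 at 2 hr. The 24-hr *Ssr2* values were 3.35, 3.37 and 3.34 after E2 and 2.40, 2.63 and 2.61 after E3. The 24-hr order was that of *Ssr1*, and the E2 2-hr arrays were the lowest of all. *Ssr1* rose by 1.10 (adjusted p = 2.02e-06) and 0.31 (adjusted p = 0.0264) after E2 and E3 at 24 hr. *Ssr2* fell by 0.27 after E2 at 2 hr (adjusted p = 0.0306), rose by 0.40 (adjusted p = 0.00417) after E3 at 2 hr, and rose by 1.3 (adjusted p = 7.73e-07) and 0.50 (adjusted p = 0.00244) at 24 hr. *Ssr3* rose in all 4 groups (0.69, 0.49, 0.74 and 0.37). The signal peptidase subunits *Spcs2* and *Spcs3* rose after E2 at 24 hr (0.56 and 0.92) and were at 0.12 and 0.06 after E3.

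Some calls against saline lay near the threshold and were lost on leaving out 1 array, in part an array outside the comparison, which enters only the shared spread. After E2 at 2 hr, 8 of the 25 calls were lost on leaving out any 1 of the arrays named: *Calr* (at 0.21 to 0.38 without saline replicates 1, 2 or 3 or E2 2-hr replicates 2 or 3, adjusted p up to 0.168), *Creld2* (at 0.74 to 0.90 without saline replicates 1 or 3, E2 2-hr replicates 2 or 3, or E2 24-hr replicates 1 or 2, adjusted p up to 0.128), *Hsp90b1* (at 0.54 to 0.55 without saline replicate 3 or E2 2-hr replicate 2, adjusted p up to 0.0582), *P4hb* (at -0.26 without saline replicate 2 or E2 2-hr replicate 3, adjusted p up to 0.0579), *Sec61g* (at 0.29 to 0.30 without saline replicate 3 or E2 2-hr replicate 2, adjusted p up to 0.0515), *Ssr2* (at -0.26 to -0.22 without saline replicates 1 or 2 or E2 2-hr replicates 1 or 3, adjusted p up to 0.107), *Syvn1* (at 0.34 without saline replicate 3 or E2 2-hr replicate 2, adjusted p up to 0.0669), and *Xbp1* (at 0.36 to 0.48 without saline replicates 1 or 3, E2 2-hr replicates 1 or 2, E3 2-hr replicates 1 or 2, E2 24-hr replicates 1, 2 or 3, or E3 24-hr replicate 2, adjusted p up to 0.16). After E3 at 2 hr 6 of the 20 were lost: *Atf6* (at 0.30 to 0.43 without saline replicates 1 or 3, E2 2-hr replicate 2, E3 2-hr replicates 1, 2 or 3, E2 24-hr replicates 1, 2 or 3, or E3 24-hr replicate 2, adjusted p up to 0.151), *Ddit3* (at -0.37 to -0.30 without saline replicates 1 or 3 or E3 2-hr replicates 2 or 3, adjusted p up to 0.133), *Dnajc3* (at 0.49 to 0.63 without saline replicate 1 or E3 2-hr replicate 3, adjusted p up to 0.0649), *Edem1* (at 0.66 without E3 2-hr replicate 3, adjusted p up to 0.0524), *Sel1l* (at 0.18 to 0.25 without saline replicates 1 or 2, E3 2-hr replicates 2 or 3, or E2 24-hr replicate 3, adjusted p up to 0.166), and *Trib3* (at 0.85 to 0.90 without saline replicates 1, 2 or 3 or E3 2-hr replicates 1, 2 or 3, adjusted p up to 0.0862). After E2 at 24 hr 1 of the 30 was lost, *Trib3* (at -0.90 to -0.86 without saline replicates 1, 2 or 3 or E2 24-hr replicates 1, 2 or 3, adjusted p up to 0.0715), and after E3 at 24 hr 4 of the 11: *Ero1l* (at 0.55 to 0.56 without saline replicate 1 or E3 24-hr replicate 3, adjusted p up to 0.0563), *Pdia3* (at 0.26 to 0.33 without saline replicates 1, 2 or 3, E3 2-hr replicate 1, E2 24-hr replicates 1 or 3, or E3 24-hr replicates 1, 2 or 3, adjusted p up to 0.124), *Sec61a1* (at 0.23 to 0.29 without saline replicates 2 or 3, E2 2-hr replicate 3, E2 24-hr replicate 3, or E3 24-hr replicates 2 or 3, adjusted p up to 0.143), and *Ssr1* (at 0.26 to 0.34 without saline replicates 1 or 3 or E3 24-hr replicates 1 or 2, adjusted p up to 0.101). No called difference changed sign on leaving out an array. For E2 at 24 hr the count that rose was 27 or 28 whichever array was left out. Without the 3 E2 2-hr arrays, *Ern1* also rose after E2 at 24 hr (0.37, adjusted p = 0.00904). After E3 at 24 hr *Calr* then rose (0.33, adjusted p = 0.0317), *Trib3* fell (-0.38, adjusted p = 0.0162) and *Sec61a1* did not pass (0.29, adjusted p = 0.0538), and after E3 at 2 hr *Sel1l* did not pass (0.25, adjusted p = 0.0528).

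E3 and E2 were compared at the same dose and at each time. At 24 hr, 25 of the 37 genes were lower after E3 than after E2 and 2 were higher, beside 15.7% and 20.8% of all tested probes, with a median difference of -0.56 beside 0.06. By the cutoffs of the study 6 were lower and 0 higher (4.85% of probes in either direction). All 5 oxidoreductases, all 8 translocation genes, both lectin chaperones and 8 of the 10 lumenal chaperones were lower, against 0 of 3 sensors and 0 of 4 degradation genes. *Hspa5* differed by -1.31 (95% interval -1.63 to -0.98), with an adjusted p of 6.87e-05. *Sdf2l1* differed by -1.89 (95% interval -2.93 to -0.85), *Manf* by -1.64 (95% interval -2.19 to -1.09), *Hyou1* by -1.53 (95% interval -2.03 to -1.02), and *Calr* by -1.29 (95% interval -1.58 to -1.0), and for each of these every E3 array lay below every E2 array. *Dnajb11*, *Dnajc3* and *Creld2* differed by -1.05, -1.03 and -1.27. The oxidoreductases differed by -0.95 (*Pdia6*) to -0.48 (*Ero1l*), and the translocation genes by -0.86 (*Spcs3*) to -0.37 (*Ssr3*). *Ddit3* (0.65, adjusted p = 0.00326) and *Ppp1r15a* (0.32, adjusted p = 0.0108) were higher after E3 than after E2, and lower than saline after each. *Atf4* and *Xbp1* were lower after E3 (-0.45, adjusted p = 0.0033, and -0.58, adjusted p = 0.0287). The sensors did not pass: *Ern1* differed by -0.36 (95% interval -0.71 to -0.02), *Eif2ak3* by -0.28 (95% interval -0.52 to -0.05) and *Atf6* by 0.11 (95% interval -0.20 to 0.43). Nor did *Herpud1*, at 0.21 (95% interval -0.08 to 0.50), or *Trib3*, at 0.50 (95% interval -0.20 to 1.20). The shared spread includes the E2 2-hr arrays, on which *Trib3* had an SD of 0.92. Without those arrays *Ern1* was lower after E3 (-0.36, adjusted p = 0.0172), *Trib3* was higher (0.50, adjusted p = 0.00357) and *Ero1l* did not pass (-0.48, adjusted p = 0.0703), with 25 genes lower and 3 higher (16.3% and 21.9% of all probes). The epithelial markers *Krt19* (-0.86, adjusted p = 0.00124), *Krt8* (-0.64, adjusted p = 0.00489) and *Cdh1* (-0.38, adjusted p = 0.0383) were also lower after E3 than after E2 at 24 hr, *Krt18* was at 0.03 (95% interval -0.30 to 0.36), and the part of epithelial cells in these differences was not tested.

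On leaving out each of the 15 arrays in turn the count lower after E3 at 24 hr ran from 20 to 27, and 5 of the 27 calls were lost in at least 1 fit: *Creld2* (at -0.94 without E3 24-hr replicate 1, adjusted p up to 0.0569), *Ero1l* (at -0.55 to -0.40 without saline replicates 1, 2 or 3, E2 2-hr replicates 1, 2 or 3, E3 2-hr replicate 2, E2 24-hr replicates 1, 2 or 3, or E3 24-hr replicates 1 or 2, adjusted p up to 0.157), *Hsp90b1* (at -0.65 to -0.46 without E2 24-hr replicates 1, 2 or 3 or E3 24-hr replicates 1 or 2, adjusted p up to 0.115), *Pdia4* (at -0.93 to -0.66 without E2 24-hr replicates 1 or 2 or E3 24-hr replicates 1 or 2, adjusted p up to 0.0966), and *Xbp1* (at -0.59 to -0.43 without E2 24-hr replicates 1, 2 or 3 or E3 24-hr replicates 1 or 2, adjusted p up to 0.12). All 5 genes had their highest E3 24-hr value on replicate 3.

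**Figure D3:**
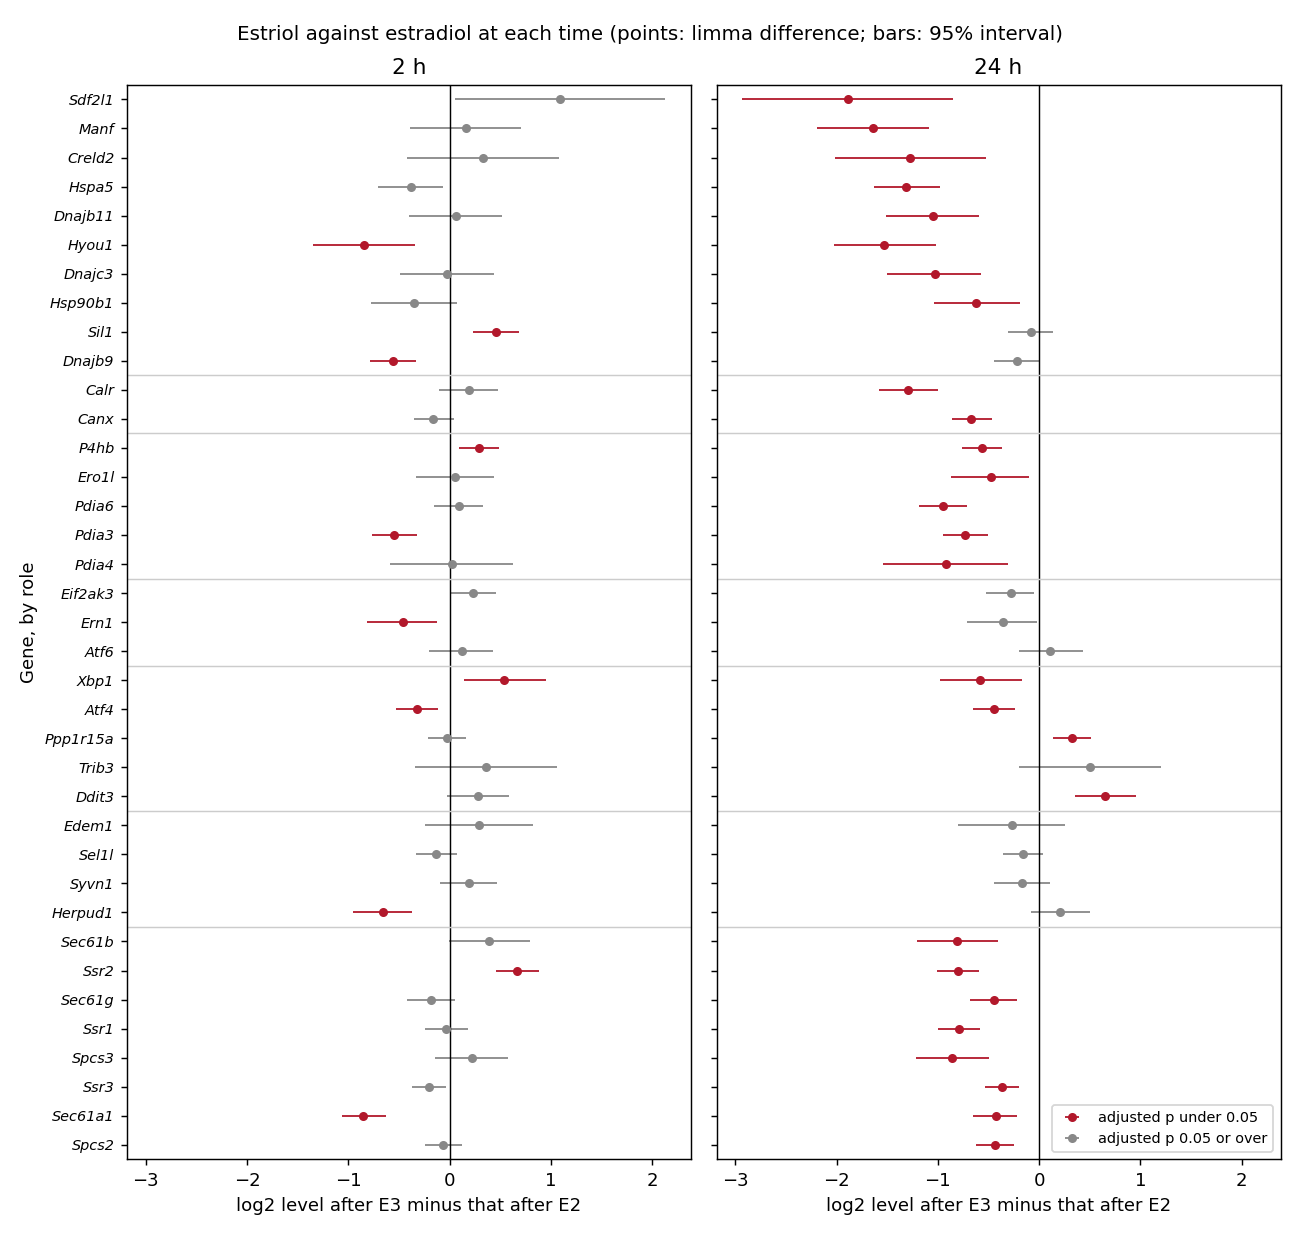
Difference in log2 level between E3 and E2 for the 37 genes at 2 hr (left) and 24 hr (right), with 95% intervals from limma and red points where the adjusted p is under 0.05. At 2 hr the points lie on either side of 0, and at 24 hr all but 5 lie below it, down to -1.89 for Sdf2l1.

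At 2 hr the 2 estrogens differed in fewer genes, with 4 of 37 higher and 7 lower after E3, beside 17% and 26.3% of probes, and a median difference of 0.05 beside -0.06. None passed the cutoffs of the study, which 7.37% of probes passed. This comparison sets arrays of different strain, slide and scanner against each other. *Sec61a1* (-0.85, adjusted p = 4.47e-05), *Hyou1* (-0.84, adjusted p = 0.0117), *Herpud1* (-0.66, adjusted p = 0.00179), *Dnajb9* (-0.56, adjusted p = 0.00114), *Pdia3* (-0.55, adjusted p = 0.0012), *Ern1* (-0.46, adjusted p = 0.0323) and *Atf4* (-0.32, adjusted p = 0.0177) were lower after E3. *Ssr2* (0.67, adjusted p = 0.000206), *Xbp1* (0.54, adjusted p = 0.0329), *Sil1* (0.46, adjusted p = 0.00405) and *P4hb* (0.29, adjusted p = 0.0214) were higher. *Ppp1r15a* differed by -0.02 (95% interval -0.21 to 0.16), *Hspa5* by -0.38 (95% interval -0.71 to -0.06), *Manf* by 0.16 (95% interval -0.39 to 0.71) and *Sdf2l1* by 1.09 (95% interval 0.05 to 2.13), none of which passed. Without scaling between the arrays 1 gene was higher and 6 were lower. The count higher ran from 2 (without E2 2-hr replicate 3) to 7 (without E3 2-hr replicate 1), and 4 of the 11 calls were lost without single arrays: *Atf4* (at -0.25 to -0.21 without E2 2-hr replicate 2 or E3 2-hr replicate 3, adjusted p up to 0.0706), *Ern1* (at -0.47 to -0.33 without E2 2-hr replicates 2 or 3 or E3 2-hr replicates 1, 2 or 3, adjusted p up to 0.134), *P4hb* (at 0.23 to 0.28 without E2 2-hr replicate 3 or E3 2-hr replicate 2, adjusted p up to 0.0909), and *Xbp1* (at 0.39 to 0.52 without E2 2-hr replicates 1 or 3 or E3 2-hr replicate 3, adjusted p up to 0.131).

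The difference between the compounds was itself compared between the times, as the E3 minus E2 difference at 24 hr minus that at 2 hr. It was below 0 in 18 genes that passed and above 0 in 3, beside 17.6% and 28.5% of probes, with a median of -0.54 beside 0.11. By the cutoffs of the study 7 passed, all below 0 (15.5% of probes in either direction). The 7 were *Sdf2l1* (-2.98, adjusted p = 0.00348), *Manf* (-1.80, adjusted p = 0.00153), *Calr* (-1.48, adjusted p = 8.27e-05), *Ssr2* (-1.47, adjusted p = 1.31e-05), *Sec61b* (-1.21, adjusted p = 0.0025), *Spcs3* (-1.08, adjusted p = 0.00279) and *Pdia6* (-1.04, adjusted p = 0.000247). *Hspa5* was at -0.92 (SE 0.212, adjusted p = 0.00377). The 3 above 0 were *Herpud1* (0.88, adjusted p = 0.00245), *Sec61a1* (0.41, adjusted p = 0.0277) and *Ppp1r15a* (0.34, adjusted p = 0.0342). *Atf4* (-0.13, adjusted p = 0.46) and *Ern1* (0.10, adjusted p = 0.738) did not pass. The calls lost without single arrays were *Ppp1r15a* (at 0.28 to 0.35 without E2 2-hr replicate 1, E3 2-hr replicates 1 or 3, E2 24-hr replicates 1, 2 or 3, or E3 24-hr replicates 1 or 2, adjusted p up to 0.0801), *Sec61a1* (at 0.35 to 0.39 without E2 2-hr replicate 1, E3 2-hr replicates 1 or 2, E2 24-hr replicate 2, or E3 24-hr replicates 2 or 3, adjusted p up to 0.0682), and *Spcs2* (at -0.35 to -0.32 without E2 24-hr replicate 3 or E3 24-hr replicate 1, adjusted p up to 0.0583). The count above 0 fell to 1 without E3 2-hr replicate 1, E2 24-hr replicate 2 or E3 24-hr replicate 2.

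Within E3, 15 of the 37 genes were lower at 24 hr than at 2 hr and 4 were higher, beside 22.3% and 33% of probes (16.1% in either direction by the cutoffs of the study, which 4 genes passed, all lower), with a median of -0.18 beside 0.12. The 4 were *Ppp1r15a* (-2.41, adjusted p = 5.13e-09), *Atf4* (-2.11, adjusted p = 1.6e-08), *Ern1* (-1.66, adjusted p = 3.35e-06) and *Hspa5* (-1.06, adjusted p = 7.73e-05). The 4 higher at 24 hr were *Sec61g* (0.67, adjusted p = 0.000184), *P4hb* (0.64, adjusted p = 8.05e-05), *Eif2ak3* (0.57, adjusted p = 0.000609) and *Pdia3* (0.37, adjusted p = 0.00864). The calls lost without single arrays were *Atf6* (at -0.42 to -0.25 without saline replicates 1, 2 or 3, E2 2-hr replicate 2, E3 2-hr replicates 1, 2 or 3, E2 24-hr replicates 1, 2 or 3, or E3 24-hr replicates 1 or 2, adjusted p up to 0.191), *Dnajb11* (at -0.55 to -0.54 without E3 2-hr replicate 3 or E3 24-hr replicate 1, adjusted p up to 0.064), *Edem1* (at -0.58 to -0.46 without E3 2-hr replicate 3 or E3 24-hr replicates 1 or 2, adjusted p up to 0.146), and *Hyou1* (at -0.68 to -0.54 without E3 24-hr replicates 1 or 2, adjusted p up to 0.0577). Without E3 2-hr replicate 3 the count higher was 7. Without the E2 2-hr arrays *Dnajb9* was lower at 24 hr (-0.26, adjusted p = 0.0487) and *Edem1* did not pass (-0.67, adjusted p = 0.0525).

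Replicate 3 of each E3 group was the highest of its group in most of the genes, and also in the summed markers of plasma cells, the antibody-secreting cells, which hold much ER. E3 2-hr replicate 3 had the highest value of its group in 27 of the 37 genes and E3 24-hr replicate 3 in 24. Among the exceptions, *Canx* was lowest on replicate 3 of both E3 groups (4.09 and 4.08), and *Calr* on that of E3 at 24 hr (3.15). E2 2-hr replicate 2 was highest in 28 and saline replicate 2 in 22 of their groups. The standing of each array over all probes was not counted, so whether these counts are particular to the set was not tested. On E3 24-hr replicate 3, *Sdf2l1*, *Creld2*, *Hyou1* and *Pdia4* were at least 1 log2 unit above the mean of the other 2 arrays, and on E3 2-hr replicate 3 *Sdf2l1* alone was. *Creld2* read 4.19, 4.34 and 4.94 after E3 at 2 hr and 2.62, 2.98 and 4.23 after E3 at 24 hr. The summed signal of 7 plasma cell markers, all above background on every array, was 18.9, 27.5 and 78.9 on the E3 2-hr arrays and 4.01, 4.57 and 51.3 on the E3 24-hr arrays, in multiples of the array 75th percentile. It was 10.5, 32.3 and 9.38 on the saline arrays, 6.99, 14.2 and 19.5 after E2 at 2 hr, and 28.7, 18.8 and 10.6 after E2 at 24 hr. Of the 7 plasma cell markers *Sdc1* was not highest on replicate 3, at 2.25, 2.20 and 2.11 after E3 at 2 hr. After E3 at 24 hr it read 0.44, 0.96 and 0.53. *Prdm1* differed little, at -0.84, -0.87 and -0.69 after E3 at 2 hr and 0.16, 0.00 and 0.29 at 24 hr. The part of these cells in the levels was not tested. Without both replicate 3 arrays of E3, 14 genes rose and 1 fell after E3 at 2 hr (17.8% and 28.2% of all probes in the same fit), 7 rose and 3 fell after E3 at 24 hr (15.2% and 14.5%), and 28 were lower after E3 than after E2 at 24 hr (13.5%). *Hyou1* then fell after E3 at 24 hr, by 0.79 (adjusted p = 0.00189), and *Creld2* and *Sdf2l1* were at -0.48 (adjusted p = 0.0939) and 0.35 (adjusted p = 0.416). Without E3 2-hr replicate 2 and E2 24-hr replicate 2, the arrays highest in pancreas markers, 27 genes rose and 2 fell after E2 at 24 hr (24.3% and 30.8% of all probes) and 21 were lower after E3 than after E2 at 24 hr (12.9%). These left-out fits were chosen after seeing the data.

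**Figure D4:**
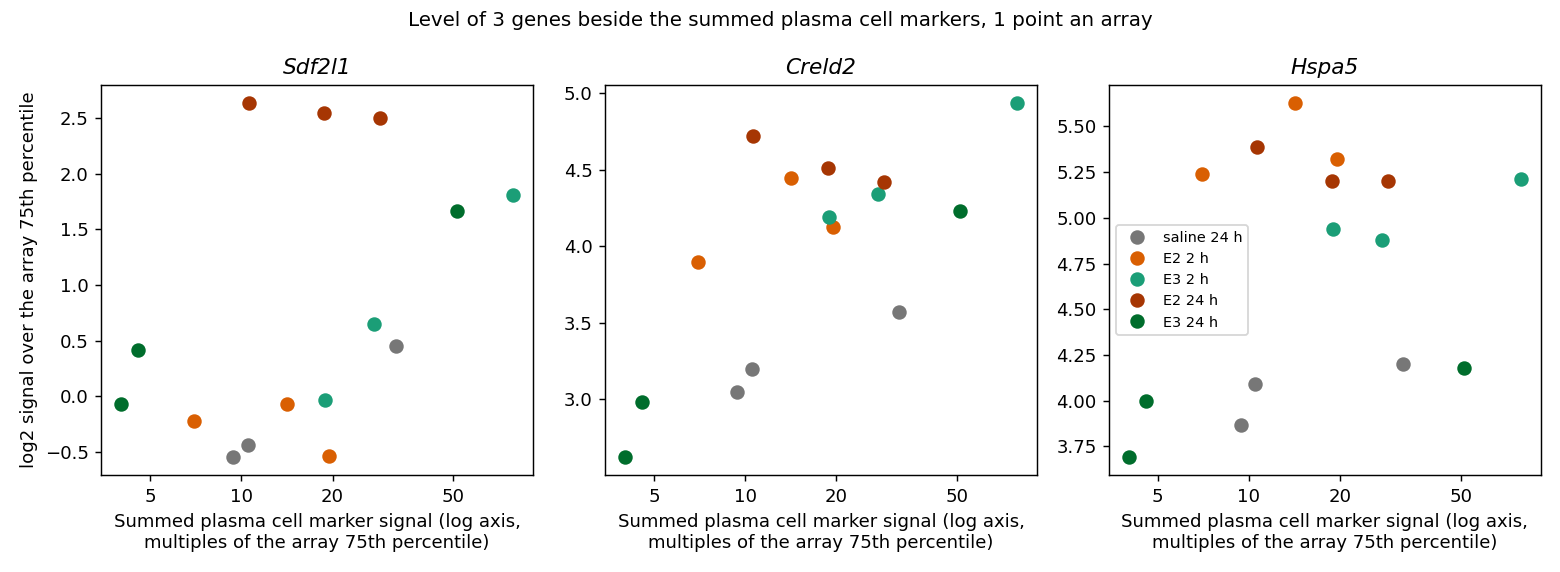
Level of Sdf2l1, Creld2 and Hspa5 on each array (log2 signal over the array 75th percentile) against the summed signal of 7 plasma cell markers on a log axis, with 1 point an array, colored by group. The E3 arrays with sums of 78.9 and 51.3 are the highest of their groups for each of the 3 genes, while the E2 24-hr arrays are high for Sdf2l1 at sums of 10.6 to 28.7.

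A further 72 genes of the same pathway, of which 71 were tested, were followed as lists by role; *Sels* was not found on the array under that symbol. After E2 at 24 hr 55 of the 71 (77.5%) rose and 4 (5.63%) fell, beside 27.3% and 34.1% of all tested probes, with a median of 0.59. After E3 at 24 hr 25 (35.2%) rose and 0 fell, beside 15.6% and 18.5%, with a median of 0.22. At 2 hr 29 (40.8%) rose and 16 (22.5%) fell after E2, beside 29.2% and 32.8%, and 21 (29.6%) rose and 5 (7.04%) fell after E3, beside 18.7% and 30.9%. At 24 hr 37 (52.1%) were lower and 0 higher after E3 than after E2, beside 15.7% and 20.8%. At 2 hr 13 (18.3%) were higher, near the 17% of all probes, and 9 (12.7%) were lower, beside 26.3%. All 7 oligosaccharyltransferase genes, whose products attach glycans in the ER, and all 9 ER-Golgi transport genes rose after E2 at 24 hr, and 5 and 2 of them after E3. Among those that passed, the largest rises after E2 at 24 hr were those of the prolyl isomerase *Fkbp11* (3.11, SE 0.272, adjusted p = 2.06e-06), the KDEL receptor *Kdelr3* (2.29, SE 0.128, adjusted p = 1.58e-07) and the ER membrane transcription factor *Creb3l1* (2.10, SE 0.186, adjusted p = 2.18e-06), and after E3 those of *Fkbp11* (1.32, adjusted p = 0.00328), *Kdelr3* (1.20, adjusted p = 0.000117) and *Ssr4* (1.02, adjusted p = 0.000155). *Fkbp11* and *Creb3l1* were also, of those that passed, the furthest below E2 after E3 at 24 hr (-1.79, adjusted p = 4e-04, and -1.69, adjusted p = 5.33e-05). At 2 hr *Chac1* and *Atf3*, stress targets of Atf4, rose after E2 (3.30, adjusted p = 7.33e-07, and 2.62, adjusted p = 2.35e-05) and E3 (2.83, adjusted p = 4.54e-06, and 2.28, adjusted p = 0.000114), as did *Fkbp11* (3.03 and 2.76). The largest falls that passed were those of *Nupr1* (-1.39, adjusted p = 0.0383) after E2 and *Creb3l2* (-0.63, adjusted p = 0.000267) after E3 at 2 hr, and of *Atf3* (-1.40, adjusted p = 0.00296) after E2 at 24 hr. Of those that passed, between the compounds at 2 hr *Edem2* was furthest above E2 (1.10, adjusted p = 0.00323) after E3. From 2 to 24 hr of E3 *Chac1* fell most (-3.08, adjusted p = 1.92e-06) and *Fkbp7* rose most (1.20, adjusted p = 9.28e-06). In the difference between the times, of those that passed, *Creb3l1* was furthest below 0 (-2.18, adjusted p = 5.78e-05).

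Over the 15 arrays, the levels of the other set members most like *Hspa5* by Pearson correlation were those of *Dnajc3* (0.92), *Hyou1* (0.91), *Dnajb11* (0.90), *Manf* (0.88) and *Creld2* (0.86), and the least like were *Sil1* (-0.44) and *Ddit3* (-0.56). *Sdf2l1* (0.36) and the translocation genes *Sec61b* (0.18) and *Ssr2* (0.17) were little like *Hspa5*. Among the tested genes outside the set the most alike were *Ube1dc1* (0.978), *Cycs* (0.977), *Slc35b1* (0.977), *AU014645* (0.970) and *1700012G19Rik* (0.966), as the array names them. The arrays share the groups and the scaling, and these correlations are a description.

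For genes with several probes the probes did not always move alike. Of the 18 such genes, probes passed the test in opposite directions for *Sel1l* and *Ssr1* after E2 at 2 hr, for *Pdia6*, *Ssr1* and *Ero1l* after E2 at 24 hr, for *Ssr1* after E3 at 24 hr, for *Sec61a1* between the compounds at 2 hr, and for *Pdia6* and *Sec61a1* in the difference between the times. After E2 at 24 hr the 4 *Pdia6* probes gave 1.12 (the brightest), 1.69, 1.58 and -0.38, the last from the dimmest probe, at chr12:17331366-17331425 (mm7, plus strand). The 3 *Ssr1* probes gave 1.10, 1.35 and -0.39, the last at chr13:37390573-37390632 (mm7, minus strand), and the 2 *Ero1l* probes 1.12 and -0.29. In other cases the brightest probe did not pass against saline and another probe did, for 5 genes after E2 and 5 after E3 at 2 hr, and for 2 after E2 and 5 after E3 at 24 hr. Among them were *Hyou1* after E3 at 2 hr (0.36 on the brightest probe, 1.74 on another with adjusted p = 3.68e-05) and at 24 hr (-0.43 and -0.84, adjusted p = 0.0114), *Sec61a1* after E3 at 2 hr (0.11, against 0.92 with adjusted p = 4.49e-06 and 0.33 with adjusted p = 0.0171), and *Syvn1* after E2 at 24 hr (0.21, against 0.59 with adjusted p = 0.0326). Of the genes with several probes that were called on the brightest, some other probe did not share the call for 4 of 9 after E2 and 3 of 8 after E3 at 2 hr, and for 7 of 14 after E2 and 3 of 4 after E3 at 24 hr. After E2 at 2 hr these were *Hsp90b1* (its other probe at 0.20, adjusted p = 0.482), *Dnajb9*, *Dnajc3* and *Sel1l*. The counts of genes given here are those of the brightest probes. Where in the transcript these probes lie was not analysed here.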

How the data were processed

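The deposited scanner files hold the intensity of 45018 spots on each of 15 Agilent arrays, as the authors' Feature Extraction 9.5.3.1 wrote it. The processed signal in the deposited files is background-subtracted, and the header gives the mm7:NCBI35:Aug2005 build. Control spots and 1893 flagged spot values were left out, spots of 1 probe were averaged to 41174 probes, and log2 signals were set relative to the 75th percentile of their array. A probe was tested where at least 2 arrays of 1 group were well above background, which 34776 probes (84.5%) were. Limma 3.58.1 (R 4.3.3) fitted 5 group means of 3 arrays with 10 residual degrees of freedom, and p-values were adjusted by Benjamini-Hochberg over all tested probes. Precision is bounded by having 3 arrays a group. The fit was tested on simulated data. The members and lists were chosen with earlier results of these data known. Values on all arrays are given for 9 central genes and for each gene that passed the study's cutoffs in a comparison with saline or of E3 with E2; genes of other lists were named where they had the largest changes that passed in a comparison. Not every gene this rule names is reported here. Other backgrounds, scalings, filters, probe choices and left-out arrays were tried.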

Additional observations from a re-analysis of the deposited data

Results flagged for a closer look

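For 16 of the genes given in full, the E3 minus E2 difference at 24 hr differed from that at 2 hr by the interaction contrast of limma (adjusted p under 0.05). Over all tested probes 17.6% passed below 0 and 28.5% above 0. The genes given in full were chosen in part by the comparisons of E3 with E2 that enter this contrast. The contrast uses the E2 2-hr arrays, whose strain, slide and scanner cannot be told apart from the treatment, and that part was not tested. Among chaperones the change of the difference was -0.92 for *Hspa5*, -1.11 for *Dnajb11*, -1.01 for *Dnajc3*, -2.98 for *Sdf2l1*, -1.80 for *Manf* and -1.48 for *Calr*. The oxidoreductases *Pdia6* and *P4hb* had -1.04 and -0.86, the sensor *Eif2ak3* -0.52, and *Xbp1* -1.12. Among translocation genes it was -1.21 for *Sec61b*, -0.76 for *Ssr1* and -1.47 for *Ssr2*. The values above 0 were 0.34 for *Ppp1r15a*, 0.88 for *Herpud1* and 0.41 for *Sec61a1*. *Sec61a1* turned to -0.33 when all probes of the gene were averaged. For *Ppp1r15a* the adjusted p was up to 0.0801 on leaving out single arrays.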

How the results depend on the processing

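Counts are of the 37 genes. The shares of all probes called with these other settings are not given, other than those stated above. The normexp background gave 3 lower after E2 and 1 lower after E3 at 2 hr, 3 higher and 1 lower after E3 at 24 hr, 2 higher after E3 than E2 at 2 hr, and 1 above 0 in the difference between the times, and moved the median of all probes to 0.32 after E3 at 24 hr, 0.44 between the compounds at 24 hr, 0.50 from 2 to 24 hr of E3 and 0.48 in the difference between the times, against -0.01, 0.06, 0.12 and 0.11 as reported. No scaling gave 3 lower after E2 and 0 lower after E3 at 2 hr, 4 higher and 1 lower after E3 at 24 hr, and 1 higher after E3 than E2 at 2 hr, 1 at 24 hr, and 1 above 0 in the difference between the times. The cutoffs of the study left 6 higher and 0 lower after E2 and 5 and 0 after E3 at 2 hr, 14 and 1 after E2 and 0 and 0 after E3 at 24 hr, 0 and 0 between the compounds at 2 hr, 0 and 6 at 24 hr, 0 and 4 from 2 to 24 hr of E3, and 0 and 7 in the difference between the times. A 1.5-fold minimum left 13 higher and 3 lower after E2 at 2 hr, 0 lower after E3 at 2 hr, 4 higher and 0 lower after E3 at 24 hr, 1 higher and 3 lower between the compounds at 2 hr, 1 higher at 24 hr, 2 higher from 2 to 24 hr of E3, and 1 above 0 in the difference between the times. A fit of only the arrays compared gave 2 higher after E3 than E2 at 2 hr. The count lower after E3 at 2 hr was 1 without the arrays highest in plasma cell markers and 1 without those highest in pancreas markers. Without the E3 arrays highest in plasma cell markers, 7 were higher at 24 than at 2 hr of E3. Leaving out 1 array moved the counts to 3 to 5 lower after E2 at 2 hr, 1 to 2 lower after E3 at 2 hr, 2 to 7 higher after E3 than E2 at 2 hr, 4 to 7 higher from 2 to 24 hr of E3 and 1 to 3 above 0 in the difference between the times. The mean over all probes of a gene turned *Sec61a1* from 0.18 to -0.27 between the times of E3 and from 0.41 to -0.33 in the difference between the times, *Sel1l* from 0.37 to -0.18 after E2 at 2 hr and from -0.13 to 0.81 between the compounds at 2 hr, and *Spcs2* from -0.06 to 0.42 there. The replicate numbers did not pair the arrays: deviations of same-numbered arrays correlated at -0.46 to 0.55 (median 0.04), and 5 of 15 arrays correlated best with their own number. With the replicate number as a block, 27 were higher after E2 at 24 hr, 26 lower after E3 than E2 at 24 hr and 1 lower after E3 at 2 hr. The slide as a random block had a correlation of -0.012. Other causes of these changes were not tested.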
